A study of Mus musculus with 9 samples.

Results

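NMDA receptors are the glutamate-gated ion channels that pass calcium when a synapse is active, and their subunits are encoded by the Grin genes. The set described here holds 6 listed genes: Grin1, Grin2a, Grin2b, Grin2c, Grin2d and Grin3a. A gene was taken in where a probe set of the array carried its symbol alone, and of several such probe sets the brightest on average was used. This gave 5 of the 6 listed genes, out of 22180 genes in all; Grin1 had no such probe set in the platform table and was not analysed here.

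As background, every NMDA receptor contains the obligate GluN1 subunit, encoded by Grin1, which binds glycine or D-serine, joined by GluN2 subunits that bind glutamate or by GluN3 subunits that bind glycine. The GluN2 type sets how long the channel stays open and how strongly magnesium blocks it. In the rodent forebrain Grin2b and Grin2d are the embryonic GluN2 genes, Grin2a rises after birth, Grin2c is best known from cerebellar granule cells and astrocytes, and Grin3a is known from young neurons before synapses mature.

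RNA came from 3 kinds of culture of embryonic cortex of wild-type CD1 mice, an outbred strain, with 3 arrays each and no treatment or allele beyond the culture type. Neurons came from embryonic day 16, and their time in culture is given as 5 days in one label and 4 in another. Precursors were taken at embryonic day 13 and kept for 1 day. For the co-culture, such precursors were added to neurons that had been kept for 4 days, and both were kept together for 1 day. The series title names ligands that promote neurogenesis in the developing cortex. The labels call the 3 arrays of a group biological replicates without naming litters or days, so the p-values measure the spread between these samples. Embryonic day, days in culture and cell type differ together between neurons and precursors and cannot be told apart.

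The values are log2 RMA levels, so a difference of 1 is a 2-fold difference in array signal; the array medians lay between 6.75 and 6.79. Levels are compared between cultures for 1 gene at a time, since probe sets of different genes are not on a common scale. Of 8 neuron markers 7 were higher in the neuron cultures than in precursors, and of 8 radial precursor markers all 8 were lower (limma, adjusted p under 0.05). Over all tested genes 28% were higher in neurons and 35.2% lower, which is the background for each marker count. The neuron marker that did not pass was Tubb3, a tubulin of young neurons, at a mean of 11.95 in neurons and 11.96 in both other cultures (limma adjusted p = 0.880). All 5 tested cycling markers and all 4 tested endothelial markers were lower in neurons. Of these, Bub1, Pecam1, Kdr and Flt1 were below the array median on every neuron array and were tested through the other cultures alone. The endothelial markers Cldn5 and Tek were below it on every array and were not tested. The part of the cycling and endothelial markers in the subunits' differences was not tested. The 8 neuron markers had a summed linear signal of 30904 to 32114 in the neuron arrays, 19805 to 20036 in the precursor arrays and 22944 to 23097 in the co-cultures.

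Grin2a, Grin2b and Grin3a were all highest in neurons, intermediate in the co-culture and lowest in precursors, with no overlap between any of the 3 groups. Grin2d was higher in neurons than in precursors by a smaller amount, and Grin2c was the only measured subunit that was lower in neurons. The 5 subunits thus split 4 against 1. Over all 13012 tested genes, 28% were higher in neurons and 35.2% lower (63.1% in either direction), so a call as such was common in this comparison. Groups without overlap were as common, in 29.5% of genes upward and 36.9% downward. Genes were tested if above the array median on at least 3 arrays. Grin2a passed that filter through its 3 neuron arrays alone, but in a fit to all 22180 genes without the filter all 5 members kept their calls (17.7% of genes higher and 20.2% lower).

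**Figure D1:**
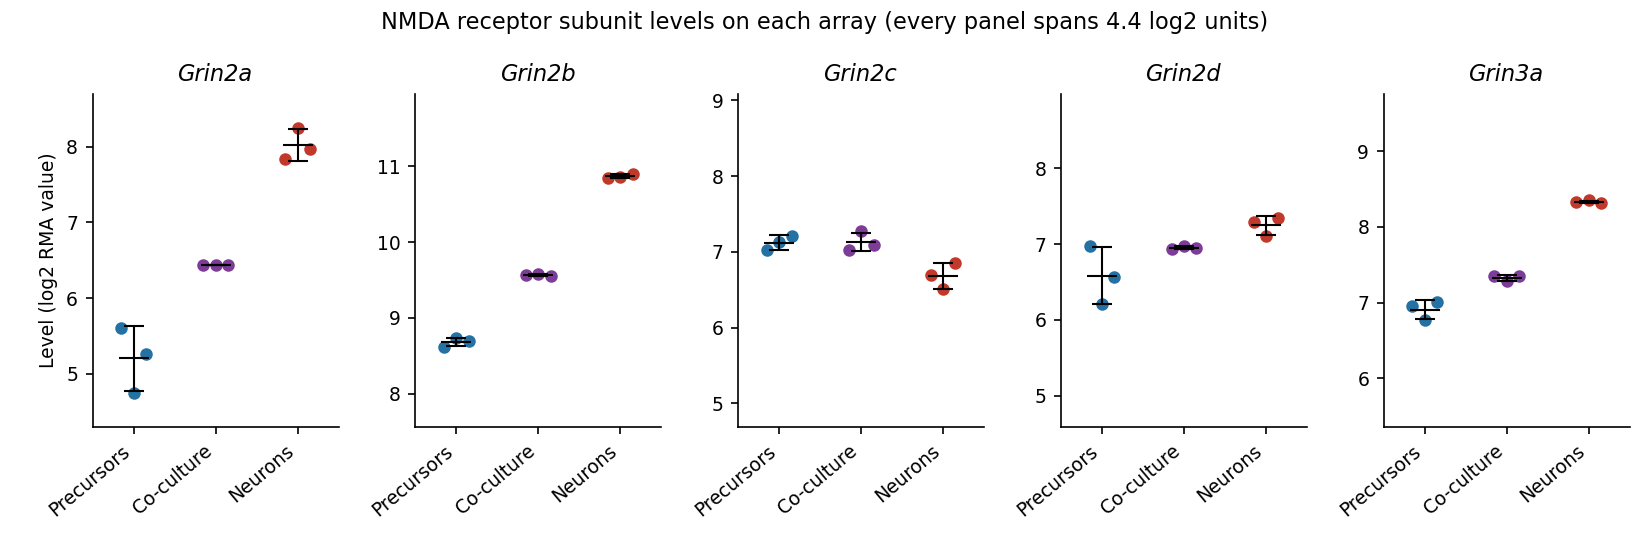
Level of each measured NMDA receptor subunit (log2 RMA value) on the 3 arrays of each culture; points are arrays, and the bar and whiskers are the mean and SD. Grin2a, Grin2b and Grin3a step up from precursors to co-culture to neurons without overlap, and Grin2c has its lowest values in neurons.

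Grin2b encodes the GluN2B subunit, which gives slow receptor currents and binds CaMKII. Its level was 10.85, 10.86 and 10.90 in the neuron cultures, 8.62, 8.73 and 8.69 in the precursor cultures and 9.56, 9.58 and 9.55 in the co-cultures. The neuron arrays all lay more than 2 log2 units above every precursor array, and the co-culture arrays lay between the groups and close together. Neurons exceeded precursors 4.56-fold (log2 difference 2.19, SE 0.043, limma adjusted p = 8.95e-10). A second, dimmer Grin2b probe set, at 6.31 to 6.61 in neurons and 5.58 to 5.93 in precursors, gave a smaller difference of 0.64 (limma adjusted p = 8.46e-04). The separate fit to every probe set, used here and for the second probe sets of Grin2c and Grin2d, was added after their values were seen. With the mean of both probe sets the difference was 1.42.

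Grin2a encodes GluN2A, the subunit of fast-closing receptors that becomes common in the postnatal forebrain. Its 3 neuron arrays read 7.83, 8.25 and 7.97, and its precursor arrays 5.61, 4.75 and 5.26. Every precursor and co-culture array was below the array median for Grin2a, and the precursor arrays varied widely among themselves (SD 0.43, larger than that of 99.7% of tested genes). Neurons exceeded precursors 7.02-fold (log2 difference 2.81, SE 0.18, limma adjusted p = 6.35e-07). All 3 co-culture arrays held the identical value of 6.44. The same was true of 1.26% of tested genes, so the spread of Grin2a in the co-culture cannot be read from these values. The limma SE pools the spread of all 3 groups, so the identical values make it smaller in every comparison of Grin2a. The SE and p-values of Grin2a are thus firmer than the SDs of 0.21 in neurons and 0.43 in precursors alone would give.

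Grin3a encodes GluN3A, which lowers calcium entry through receptors that contain it. It read 8.33, 8.35 and 8.32 in neurons, 6.95, 6.77 and 7.01 in precursors and 7.35, 7.28 and 7.35 in co-cultures. Its neuron arrays agreed more closely than those of most genes (SD 0.013, with a smaller SD in 2.94% of tested genes). Neurons were 2.69-fold above precursors (log2 difference 1.43, SE 0.061, limma adjusted p = 3.82e-08).

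Grin2d encodes GluN2D, the subunit of the slowest-closing receptors, known in the forebrain mainly from interneurons. Its values were 7.29, 7.11 and 7.35 in neurons, 6.97, 6.21 and 6.57 in precursors and 6.94, 6.97 and 6.95 in co-cultures. Precursor replicate 1 fell within the range of the co-culture arrays, while the other precursor arrays were lower and below the array median. Neurons exceeded precursors 1.58-fold (log2 difference 0.66, SE 0.16, limma adjusted p = 0.00402). The second Grin2d probe set gave 0.44 (limma adjusted p = 0.00286). Interneuron markers moved both ways in the same comparison. Of 9 tested, 5 were higher in neurons (Gad1, Slc32a1, Lhx6, Sst and Npy) and 4 were lower (Gad2, Dlx2, Dlx5 and Calb2). Among all tested genes 28% were higher and 35.2% lower. Summed on the linear scale they gave 10077 to 10580 in the neuron arrays, 6600 to 8872 in the precursor arrays and 7969 to 9061 in the co-cultures. Sst, the brightest of them at a mean of 12.27 in neurons and 10.87 in precursors, weighs most in this sum. The part of these markers in the Grin2d difference was not tested.

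Grin2c encodes GluN2C, whose receptors are only weakly blocked by magnesium. It read 6.69, 6.51 and 6.85 in neurons, 7.02, 7.13 and 7.21 in precursors and 7.03, 7.27 and 7.09 in co-cultures. All 6 arrays that held precursors were above all 3 neuron arrays, and of the neuron arrays 1 was above its array's median. Neurons were 1.36-fold below precursors (log2 difference -0.44, SE 0.094, limma adjusted p = 0.00240). The other Grin2c probe set was far dimmer, at 4.58 to 4.70 in neurons and 4.76 to 4.92 in precursors, and differed by -0.17 (limma adjusted p = 0.0448). Of 5 tested astrocyte markers 3 were lower in neurons (Gja1, Aldoc and Sox9) and 2 higher (Aldh1l1 and Slc1a2). Among all tested genes 35.2% were lower and 28% higher. The summed linear signal of all 8 listed astrocyte markers was 1678 to 1913 in the neuron arrays, 4104 to 4336 in the precursor arrays and 3970 to 4046 in the co-cultures. Aldoc (mean 10.64) and Sox9 (10.60) were the brightest of them in precursors and weigh most there. The astrocyte markers Aqp4 and S100b were below the array median on every array, and Gfap was above it on 1 array and was not tested. These markers do not settle which cells carry the signal, and their part in the Grin2c difference was not tested.

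Grin2c and Grin2d, the measured subunits with small and opposite differences, are also the 2 of the 5 with a promoter entry in the RefSeq table for GRCm38.p6. The 250 bases before the start are shown for each, 5′ to 3′ on the gene's strand, with each GC box (GGGCGG on either strand) in capitals. The Grin2c stretch lies at chr11:115267244-115267493 on the minus strand and the Grin2d stretch at chr7:45866682-45866931 on the minus strand.
Grin2c: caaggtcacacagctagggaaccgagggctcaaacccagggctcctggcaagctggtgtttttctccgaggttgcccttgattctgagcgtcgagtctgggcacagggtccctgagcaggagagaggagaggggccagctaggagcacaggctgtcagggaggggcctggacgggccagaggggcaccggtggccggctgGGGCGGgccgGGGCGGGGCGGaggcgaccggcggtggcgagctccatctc
Grin2d: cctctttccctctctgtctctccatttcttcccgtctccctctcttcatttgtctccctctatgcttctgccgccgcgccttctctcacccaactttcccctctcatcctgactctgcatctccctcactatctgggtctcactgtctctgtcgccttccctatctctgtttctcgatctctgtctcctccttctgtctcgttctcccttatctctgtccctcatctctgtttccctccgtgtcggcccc
The Grin2c stretch carries 3 GC boxes, of which 2 overlap, and the Grin2d stretch carries 0. Over the full entry of 300 bases, which includes 50 after the start, GC content was 70.0% for Grin2c and 56.0% for Grin2d, against a median of 52.7% over 32851 entries. A GC box was present in 35.7% of all entries. The CRE half-site TGACG (20.8% of entries) and the CCAAT box CCAAT (37.4%), searched on both strands, were found in neither gene's entry, and the E-box CANNTG (72.3%) occurred once in Grin2d and not in Grin2c. These matches are letters in a window and say nothing of the factors that bind there.

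Whether the subunits differed in their change was examined with the difference between 2 subunits within each array, which is free of array scaling. A total of 4 pairs were compared, each with an exact two-sided permutation test of 3 against 3 arrays, which cannot give less than p = 0.10. Grin2a minus Grin2b was -2.85 ± 0.21 (SD, n = 3) on the neuron arrays and -3.47 ± 0.48 on the precursor arrays, a shift of 0.62 towards Grin2a (exact p = 0.10, adjusted p = 0.10). Without precursor replicate 2 the shift was 0.37. The gap between the groups was narrow: the lowest neuron value was -3.01 and the highest precursor value -3.02. Relative to Grin2b, Grin3a shifted by -0.76, Grin2d by -1.53 and Grin2c by -2.63 in neurons, without overlap and each with exact p = 0.10 and adjusted p = 0.10. For Grin2c this outcome was fixed beforehand, as Grin2b was higher and Grin2c lower in neurons, each without overlap. All 4 pairs hold Grin2b, so their shifts are not independent of each other. These shifts depend on which Grin2b probe set is used: with the mean of probe sets, Grin2a shifted by 1.40 and Grin3a by 0.0099. No order of Grin2b and Grin3a in the size of their rise therefore holds over both settings.

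The co-culture was compared with precursors alone to see which subunits differed where the sample also held neurons with their own RNA. Of the 5 measured subunits, 3 were higher and 0 lower, against 8.22% of all tested genes higher and 0.2% lower (8.42% in either direction). The same 3 did not overlap between the groups, as was so for 19.4% of genes upward and 5.4% downward. Without the filter the same 3 were called, with 3.53% of genes higher and 0.18% lower. Grin2a differed by 1.23 (SE 0.18, limma adjusted p = 0.00233), but both groups lay below the array median on every array and the 3 co-culture values were identical, so no fold is given. For Grin2b the difference was 1.84-fold (0.88, SE 0.043, limma adjusted p = 2.14e-06), and for Grin3a 1.34-fold (0.42, SE 0.061, limma adjusted p = 0.00215). With the mean of both probe sets the Grin2b difference was 0.58, and its second probe set alone differed by 0.29 and did not pass (limma adjusted p = 0.275). In a bulk sample, more cells of a type and more RNA per cell cannot be told apart. Grin2d differed by 0.37 and did not pass (95% interval 0.019 to 0.72 before adjustment, limma adjusted p = 0.243). Without precursor replicate 1, its highest precursor array, Grin2d differed by 0.56 and passed (limma adjusted p = 0.0148), and without replicate 2, its lowest, it differed by 0.18 and did not (limma adjusted p = 0.569). The second Grin2d probe set differed by 0.080 (limma adjusted p = 0.828). Grin2c was at 7.12 in precursors and 7.13 in the co-culture, a difference of 0.0099 with a 95% interval of -0.20 to 0.22 (limma adjusted p = 0.979).

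**Figure D2:**
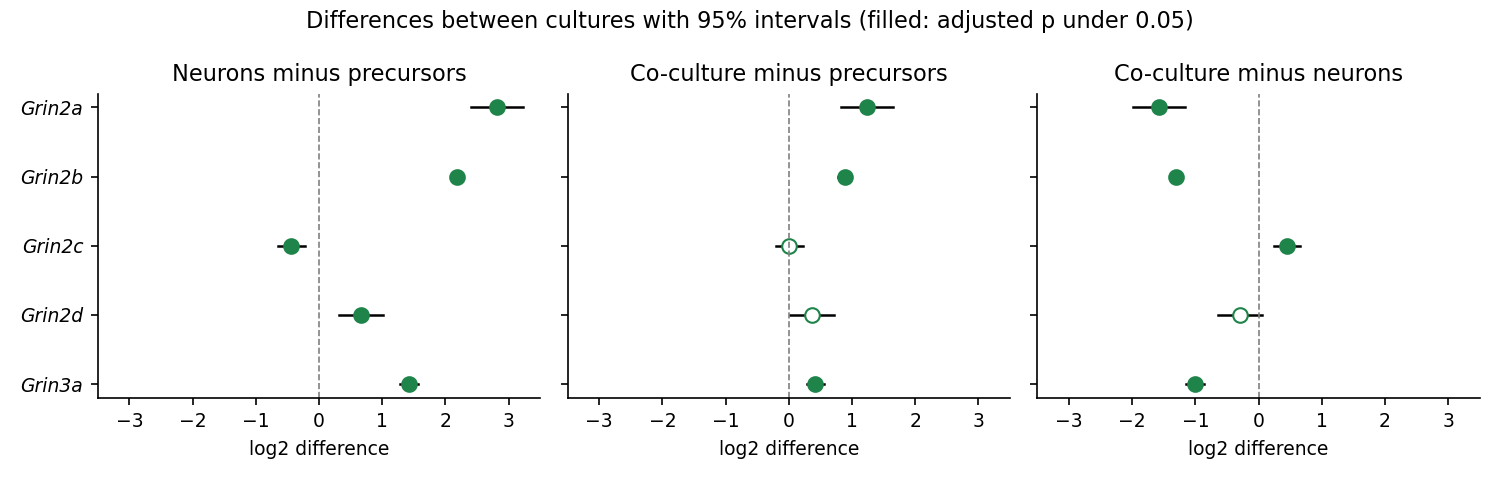
Log2 difference of each subunit between the cultures named above each panel, with its 95% interval from the limma model; filled points passed at an adjusted p under 0.05. Grin2a, Grin2b and Grin3a passed in all 3 comparisons, Grin2d between neurons and precursors alone, and Grin2c in both comparisons with neurons.

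Against neurons alone, the co-culture had lower Grin2a, Grin2b and Grin3a and higher Grin2c (24.9% of tested genes were lower and 35.7% higher, 60.6% in all). Groups without overlap made up 27.3% of genes downward and 38.1% upward. Without the filter these 4 kept their calls, with 16.7% of genes lower and 20.3% higher. The log2 differences were -1.58 for Grin2a (SE 0.18, limma adjusted p = 4.87e-05), -1.31 for Grin2b (SE 0.043, limma adjusted p = 2.63e-08) and -1.01 for Grin3a (SE 0.061, limma adjusted p = 6.99e-07). With the mean of both probe sets the Grin2b difference was -0.83, and with its second probe set -0.35 (limma adjusted p = 0.0268). Grin2c was 1.36-fold higher (0.45, SE 0.094, limma adjusted p = 0.00233), while its other, dimmer probe set differed by 0.12 and did not pass (limma adjusted p = 0.134). Grin2d differed by -0.29 and did not pass (95% interval -0.64 to 0.056, limma adjusted p = 0.131), although its arrays did not overlap. It passed without precursor replicate 1 (limma adjusted p = 0.0261) or replicate 2 (0.0366) and with the mean of its probe sets (-0.33, limma adjusted p = 0.00735). The second Grin2d probe set alone differed by -0.36 and passed (limma adjusted p = 0.0101). The co-culture arrays enter both of these comparisons, so the comparisons are not independent of each other.

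Because the co-culture holds RNA of both cell types, each subunit was also set against the level that mixing the separate cultures would give. The neuron-like share of the co-culture RNA was estimated without the Grin genes at 16.6% ± 1.11 (SD, n = 3). It was the mean of 22.6% ± 1.21 from 103 neuron-high genes and 10.5% ± 2.21 from 109 precursor-high genes, each set at least 4-fold above the other culture. The same share computed from a subunit alone was 22.4% in each co-culture for Grin2a, 23.7% ± 0.48 for Grin2b and 17.4% to 21.4% for Grin3a. The Grin2a share rests on identical co-culture values below the array median, so its spread cannot be read. The shares of Grin2a, Grin2b and Grin3a all lay above the joint estimate, which also averages in the lower share from precursor-high genes. Beside the 22.6% from neuron-high genes, Grin2a and Grin3a lay below and Grin2b above. Grin2d gave 47.7% to 53.1%, from separate cultures only 1.58-fold apart. Values for Grin2c ran from -41.4% to 23.3%, so no share can be read for it. All these shares hold for the brightest probe set of each gene alone. No share was computed from the second probe sets of Grin2b, Grin2c and Grin2d, so the place of Grin2b and Grin2d beside the estimates may depend on the probe set.

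None of the 5 subunits departed from the predicted mixture (limma, adjusted p under 0.05), against 0.361% of tested genes above it and 0.0307% below. At an unadjusted p under 0.05 there was 1, Grin2b, as 6.97% of tested genes were above at that level. Grin2b was predicted at 9.35 and measured at 9.56, a departure of 0.21 (SE 0.037, limma adjusted p = 0.0563). The other departures were 0.24 for Grin2a (limma adjusted p = 0.736), 0.24 for Grin2d (0.705), 0.074 for Grin2c (0.852) and 0.065 for Grin3a (0.778). The Grin2b value depended on the share: it passed at the share from genes high in precursors (0.42, limma adjusted p = 5.10e-04), and with the share from genes high in neurons it was 0.032 and did not (limma adjusted p = 0.793). This test takes the share as known, without error.

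**Figure D3:**
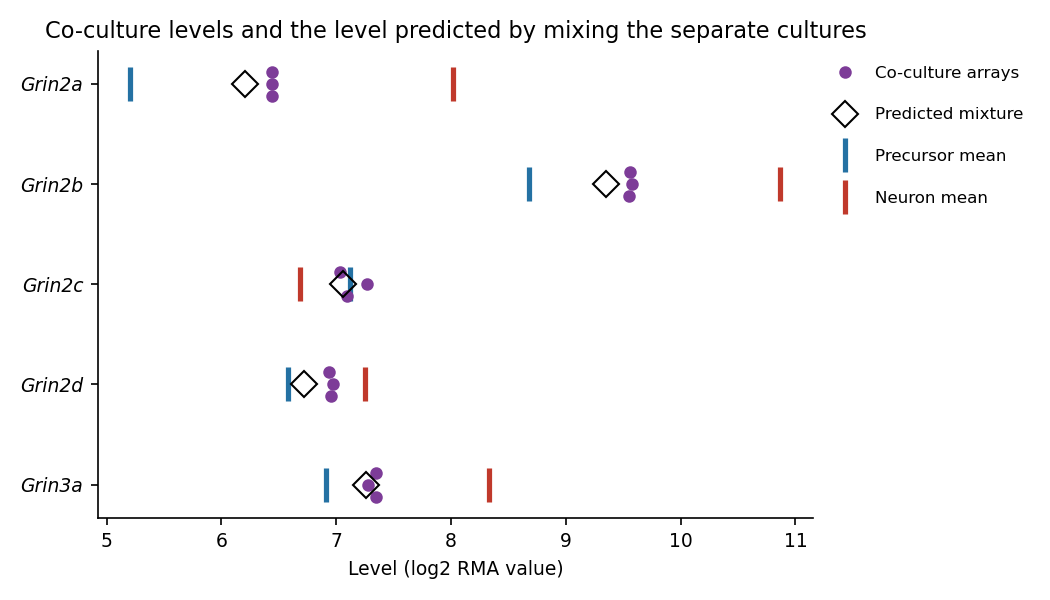
Co-culture arrays (points), the level predicted by mixing the separate cultures at the estimated share (diamonds) and the mean levels of precursors and neurons (ticks), all as log2 RMA values. Co-culture means lie to the right of the prediction by 0.24 (Grin2a, Grin2d), 0.21 (Grin2b), 0.074 (Grin2c) and 0.065 (Grin3a). None of these departures passed (limma, adjusted p under 0.05).

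The genes with profiles most like each subunit were taken by the smallest root mean square difference over the 9 arrays, after centring each gene on its own mean. For Grin2b these were Ppp2r2c, a regulatory subunit of protein phosphatase 2A (0.049), the AMPA receptor gene Gria1 (0.055) and the sodium channel gene Scn2a (0.057), against a spread of Grin2b itself of 0.90. Grin2a was closest to Gabra4, a GABA-A receptor subunit (0.16), Trank1 (0.19) and Shisa9, an AMPA receptor auxiliary protein (0.20), with a spread of 1.17. The nearest genes to Grin3a were Slc9a7 (0.052), Retreg1 (0.053) and Galntl6 (0.054), with a spread of 0.60. For Grin2c they were Pacrgl, A930024E05Rik and Litaf (0.061, 0.061 and 0.068, spread 0.24), and for Grin2d Eepd1, Isca1 and Mir331 (0.11, 0.12 and 0.12, spread 0.33). The distances of Grin2d are large beside its own spread, so these neighbours are loose.

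Genes that act with NMDA receptors were followed in 7 lists, and together with Grina 50 of 87 tested were higher in neurons and 24 lower (median 0.26, against -0.020 over all tested genes). Over all tested genes 28% were higher and 35.2% lower, which is the background for each list count that follows, so nothing particular to a list is read from its count. In the postsynaptic scaffold list 11 of 14 were higher and 2 lower. Dlg2, which encodes PSD-93, a protein that binds the tails of GluN2 subunits, was higher by 2.31 and Shank1 by 1.66, while the related Dlg1 (SAP97) was lower by a log2 difference of -0.43. Dlg4, which encodes PSD-95, was higher by 0.72. The transport and anchoring list had 8 of 11 higher and 1 lower, led by Lin7a (1.49) and Apba1 (1.40), whose proteins form a complex that carries GluN2B along dendrites.

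Among genes of calcium signalling 11 of 13 were higher in neurons and 1 lower. Rasgrf2, a calcium-regulated activator of Ras, was higher by 2.98, but it was above the array median on the neuron arrays alone. The kinase genes Camk2b (1.77) and Camk2a (1.33), whose products bind GluN2B, were higher, and Camk2d was lower at -0.27. Of the kinases and phosphatases that act on the subunits 7 of 12 were higher and 2 lower, with Prkcb at 2.24 and Ptpn5, the phosphatase STEP, at 1.09. Among surface modulators 4 of 7 were higher and 0 lower, with Neto1, an auxiliary protein of NMDA and kainate receptors, at 1.69.

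Of genes that supply or clear the agonists, 10 of 17 were lower and 5 higher in neurons (median -0.36). Among all tested genes 35.2% were lower and 28% higher. Srr, the enzyme that makes the co-agonist D-serine, was higher at 0.65, as was the glutamate transporter Slc1a1 (2.12). The enzymes of serine and glycine synthesis Shmt2 (-2.19), Psat1 (-1.19) and Phgdh (-1.18) were lower. The vesicular glutamate transporters moved apart, with Slc17a7 higher (0.36) and Slc17a6 lower (-0.58). Phgdh, Slc17a6, Slc17a7, Srr, Camk2d, Dlg1, Dlg4, Tubb3, Sst and Grik3 were singled out after their values were seen. The interneuron and astrocyte markers were also named after their values were seen.

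Of 12 transcription regulators tied to Grin genes 8 were lower in neurons and 3 higher (median -0.65). Rest, the repressor that keeps neuronal genes such as Grin1 silent in other cells, was at 6.76 ± 0.14 (SD, n = 3) on the neuron arrays, 7.48 ± 0.096 on the precursor arrays and 7.49 ± 0.067 in the co-cultures. Neurons were thus 1.65-fold below precursors (limma adjusted p = 2.37e-05), and its partner gene Rcor2 was 4.65-fold lower. Mef2c, an activity-regulated activator, was 5.49-fold higher (limma adjusted p = 1.01e-09), and Tbr1, a cortical factor that activates Grin2b, was lower at -0.95. Between co-culture and precursors Rest differed by 0.0036 (limma adjusted p = 0.990) and Mef2c by 1.13 (limma adjusted p = 1.50e-06). Over the 7 lists and Grina together, 27 of 87 tested genes were higher in the co-culture than in precursors and 0 lower (8.22% of all tested genes were higher; median 0.10, against 0.020), and without co-culture replicate 2 the count was 18. Those higher included Dlg2 (0.89), Rasgrf2 (1.05), Prkcb (0.79) and Camk2b (0.71), while Dlgap2 (0.19, limma adjusted p = 0.261) and Akap5 (0.28, limma adjusted p = 0.122) did not pass. For Rasgrf2 every precursor and co-culture array lay below the array median. Against neurons, 25 of the 87 were higher in the co-culture and 45 lower, where 35.7% of all tested genes were higher and 24.9% lower.

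**Figure D4:**
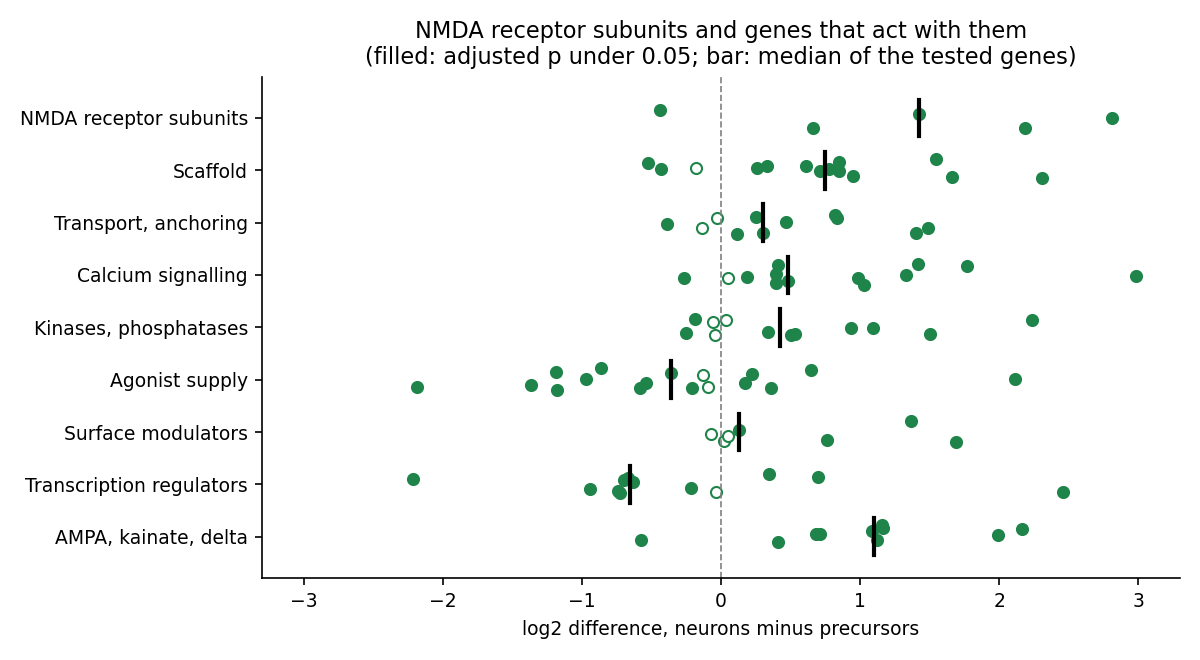
Log2 difference between neurons and precursors for the NMDA receptor subunits and for each list of genes that act with them; points are tested genes, filled where the adjusted p was under 0.05, and bars are medians. The subunits have a median of 1.43, scaffold genes 0.75 and agonist supply genes -0.36.

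The other ionotropic glutamate receptor genes are given for comparison. Of 10 AMPA, kainate and delta receptor genes 9 were higher in neurons and 1, Grik3, was lower (-0.57), with a median of 1.10 (28% of all tested genes were higher and 35.2% lower). Gria1 differed by 2.16 and Grik1 by 1.99, beside 2.19 for Grin2b and 2.81 for Grin2a; whether the families differ was not tested. Grin3b, the remaining GluN3 gene, was below the array median on every array, at 6.58 to 6.70 in neurons and 6.58 to 6.72 in precursors, and differed by -0.031 in a fit without the filter (95% interval -0.16 to 0.10, limma adjusted p = 0.745). Grina, whose name refers to NMDA receptors but whose product is not a channel subunit, was higher in neurons by 0.60 (limma adjusted p = 1.27e-06).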

How the data were processed

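Each of the 9 deposited columns holds log2 values, 1 per probe set; RMA and oligo are the tools named in the submitters' processing notes; versions, build and scanner files are not given in the sources used here. Of 41345 probe sets, 23521 carried 1 gene symbol, 1814 several and 16010 none in the platform table; only the first were used. Symbols were matched by gene number to GRCm38.p6 (23328 probe sets). Of 22180 genes, 13012 above the array median on at least 3 arrays were tested with limma 3.58.1 (R 4.3.3; lmFit, eBayes, 3 group means, Benjamini-Hochberg, threshold 0.05, two-sided), checked on simulated data. Array number limits precision. The mixture test used a contrast specific to each gene. Named genes are the members, 3 nearest profiles per called member, up to 4 called genes with the largest difference per list, and Rest, Grina and Grin3b; other names are stated as chosen later. Planned pairs with Grin1 and the planned protein comparison were not run. The members, lists and motifs were chosen with earlier results of these data known. Between precursors and co-cultures, arrays of the same number had correlated deviations (r = 0.34, 0.30 and 0.16), which pairs them by the rule of every r above 0.1; neurons were not paired with precursors (0.0043, 0.13 and -0.15) or co-cultures (-0.0051, 0.27 and 0.17). Alternatives changed filter, scaling, pairing, weights, probe set, share and each array.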

Additional observations from a re-analysis of the deposited data

How the results depend on the processing

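With the replicate block for pairing, 5, 3 and 4 subunits were called in the 3 comparisons, as without it, 0 departed from the mixture, and 73, 26 and 71 partner genes were called in place of 74, 27 and 70; it changed no subunit's call. With the filter at the 75th percentile only Grin2b and Grin3a were tested, so the counts were 2 between neurons and precursors and 2 between co-culture and neurons. Off the mixture, the count was 1 (Grin2b) with that filter, 1 with array weights, 1 with the share from genes high in precursors and 3 with a share lower by 0.1. Leaving out 1 array at a time gave 4 to 5 subunits for neurons against precursors, 2 to 4 for co-culture against precursors, 3 to 5 for co-culture against neurons and 0 off the mixture; Grin2a missed the filter, and was not tested, without any 1 neuron array. Counts over the partner lists with Grina then ran from 70 to 74, 18 to 27 and 65 to 71; 18 was without co-culture replicate 2.

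With the mean of probe sets Grin2c missed the filter and was not tested, so 4 subunits were called between neurons and precursors; between co-culture and neurons 4 were called, with Grin2d in place of Grin2c. The shifts relative to Grin2b were then 1.40 for Grin2a, -1.72 for Grin2c and -0.86 for Grin2d, and that of Grin3a turned to 0.0099; the second Grin2b probe set alone differed by 0.64. Leaving out 1 array gave 0.37 to 0.85 for Grin2a, -2.69 to -2.55 for Grin2c, -1.74 to -1.30 for Grin2d and -0.86 to -0.71 for Grin3a. Signs that turned without a call were those of Grin2c between co-culture and precursors (-0.017 with array weights, -0.040 when precursor replicate 1 was left out, and -0.060 to 0.060 over all arrays left out in turn) and of departures from the mixture: -0.14 for Grin2a, -0.077 for Grin2b and -0.11 for Grin3a at a share higher by 0.1, and -0.0049 for Grin2a and -0.046 for Grin3a at the share from genes high in neurons. The cause was not tested.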
